A study of Mus musculus with 3 samples.

Results

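The step from embryonic day E11.5 to day E13.5 was described for H3K36me3 in epithelium sorted from fetal mouse pancreas. The genes described are the 19740 of 24318 genes with an identifier whose gene-level signal, in the deposited column headed GB, was above 0 at both stages. Per the labels, wild-type C57BL/6 embryos gave the cells, which carried the epithelial surface protein EpCAM and were sorted by flow cytometry. The mark was mapped by CUT&Tag, in which a transposase, held at the mark by an antibody, cuts the DNA there and adds sequencing adapters. Each stage has 1 library. A further library at E15.5 is used here for comparison and, with the others, to recover the lengths over which gene signal was taken. The sample labels, which are followed here, and the design text give slightly different days for the middle stage. Without a second library of a stage no difference could be tested, and every difference below is a size in these libraries.

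H3K36me3 is laid down behind the elongating RNA polymerase, mainly by the methyltransferase Setd2, and so marks the bodies of transcribed genes. In the mouse pancreas, the interval from E11.5 to E13.5 is the time when the epithelium branches and its multipotent progenitors begin to separate into tip cells, which give rise to acini, and trunk cells, which give rise to ducts and islets. The files list genes by Ensembl identifier alone, and the reference gene table used here, of build GRCm38.p6, pairs no Ensembl identifiers with its symbols. Genes of the pancreas, control genes and markers of other cell types could therefore not be picked out, and the labelled cell type could not be checked against its markers. The genes are described below by the length of their GB window and by the amount and place of their signal. GB is read here as the gene body, because 33.8% of the 4639 recovered window lengths between 50000 and 500000 positions equalled a gene length in the reference, against 4.52% after the lengths were shifted. PR covers 6000 positions and SE covers 12000, and PR is taken to lie within SE, whose sum was below that of PR in 0 of 25491 rows at either stage. The 6000 positions of SE beyond PR are called outer SE. The sources used here do not say where PR and SE lie along a gene.

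The other 4578 genes had no ratio between the stages. Of the identified genes, GB was listed at 0 at E11.5 alone in 972 genes (3.997%), at E13.5 alone in 1430 genes (5.88%) and at both stages in 2176 genes (8.95%). Genes that were at 0 at E11.5 alone had a median GB of 0.00659 at E13.5, in deposited units, and those at 0 at E13.5 alone had a median of 0.00469 at E11.5. In genes with signal at both stages the median was 0.00493 at E13.5 and 0.00504 at E11.5, so the first group lay above it and the second slightly below. Recovering a window length needs signal in more than 1 library. In genes at 0 at a single stage it was thus possible only where GB was above 0 at E15.5. These were 348 genes at 0 at E11.5 alone and 583 at 0 at E13.5 alone. Their median lengths were 2978 and 2856 positions, against 20511 positions in genes with signal at both stages. Of these 931 recovered windows, 1 had 50000 positions or more, and the length of the other genes at 0 in a single library is unknown. At E15.5 GB was above 0 in 35.8% of the genes at 0 at E11.5 alone and in 40.8% of those at 0 at E13.5 alone, against 91.7% of the genes with signal at both stages.

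In the 19740 genes with signal at both stages, mean and median GB were similar in both libraries. No source states how the libraries were scaled, and scaling to a common total would itself make these values alike, so they do not show whether the amount of the mark changed. Mean GB was 0.00659 at E11.5 and 0.00631 at E13.5, a ratio of 0.958, and the median log2 ratio of E13.5 over E11.5 was -0.02. Genes were spread widely around that centre, with an SD over genes of 1.66 and quartiles of -0.69 and 0.64. GB was at least 2-fold higher at E13.5 in 3500 genes (17.7%) and at least 2-fold lower in 3532 genes (17.9%). These shares are taken over all genes compared, so they are also the background for any subset. The largest ratios came mostly from short windows with hardly any signal in the lower library, although lengths and steps of low values can be recovered too small. Of the 478 genes at least 16-fold higher at E13.5, 82.2% had a window under 10000 positions and none had one of 50000 positions or more, and 363 had at most 10 steps of signal at E11.5. Of the 363 genes at least 16-fold lower, 79.3% had a window under 10000 positions and 4 had one of 50000 positions or more. At E13.5, 251 of the 363 had at most 10 steps.

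A step is the smallest unit in which a library's window sums rise. It was 0.162 at E11.5 and 0.167 at E13.5, and every PR sum above 0 was a whole multiple of it within 0.05 steps. Steps came mostly in pairs, since 93.0% of PR sums at E11.5 and 92.3% at E13.5 were even multiples and 2 steps was the most frequent value in both libraries. A step thus has the pattern of 1 read of a read pair, although no source states what was counted. A PR window held a median of 146 steps at E11.5 and 132 at E13.5, and a GB window of a gene with signal at both stages held a median of 704 and 658. Differences between the libraries were larger in the median than independent counting of pairs would give at equal levels. For GB in long windows, the squared difference between stages divided by the sum had a median of 81.9, where independent pairs would give 0.910. Differences between stages, libraries and repeated copies of a fragment cannot be told apart in that value, and no counting interval is given.

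**Figure D1:**
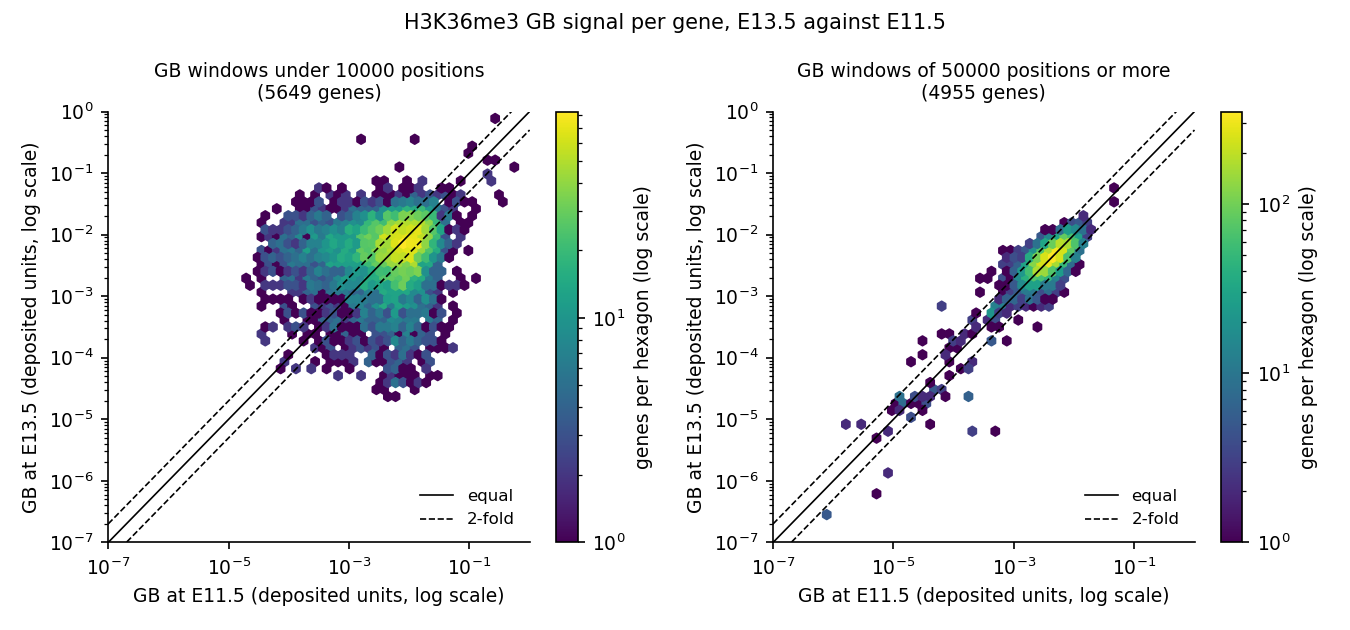
Each panel plots GB at E13.5 against GB at E11.5 in deposited units on log axes, with colour for the number of genes per hexagon, a solid line for equal values and dashed lines for 2-fold differences. Genes with windows under 10000 positions spread far beyond the dashed lines, whereas the 4955 genes with windows of 50000 positions or more lie mostly between them.

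The spread between the stages narrowed as the gene body lengthened. In windows of 2000 to 5000 positions 66.4% of 2050 genes were at least 2-fold apart, with 714 higher and 648 lower at E13.5. In windows of 10000 to 20000 positions the share was 43.1% of 4071 genes, and in windows of 50000 to 100000 positions 13.0% of 2455 genes. In windows of 200000 to 500000 positions it was 4.18% of 790 genes, with 13 higher and 20 lower. In the 316 genes with windows of 500000 positions or more, whose lengths are the least certain, it was 6.96%. The order of genes by GB was also closer between the stages in longer bodies. Spearman's correlation across genes was 0.125 in the 2000 to 5000 class, 0.548 at 20000 to 50000 positions and 0.793 at 200000 to 500000 positions. These points share a library at each stage, and genes are not independent replicates. The median log2 ratio stayed near 0 in each class from 10000 to 500000 positions, between -0.04 and 0.002. In the shorter classes it was 0.25 under 2000 positions, 0.13 at 2000 to 5000 and -0.14 at 5000 to 10000, and at 500000 positions or more it was 0.10. The counts past 2-fold were uneven at 100000 to 200000 positions, with 47 of 1394 genes higher (3.37%) and 25 lower (1.79%), and at 500000 positions or more, with 6 higher (1.899%) and 16 lower (5.06%).

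**Figure D2:**
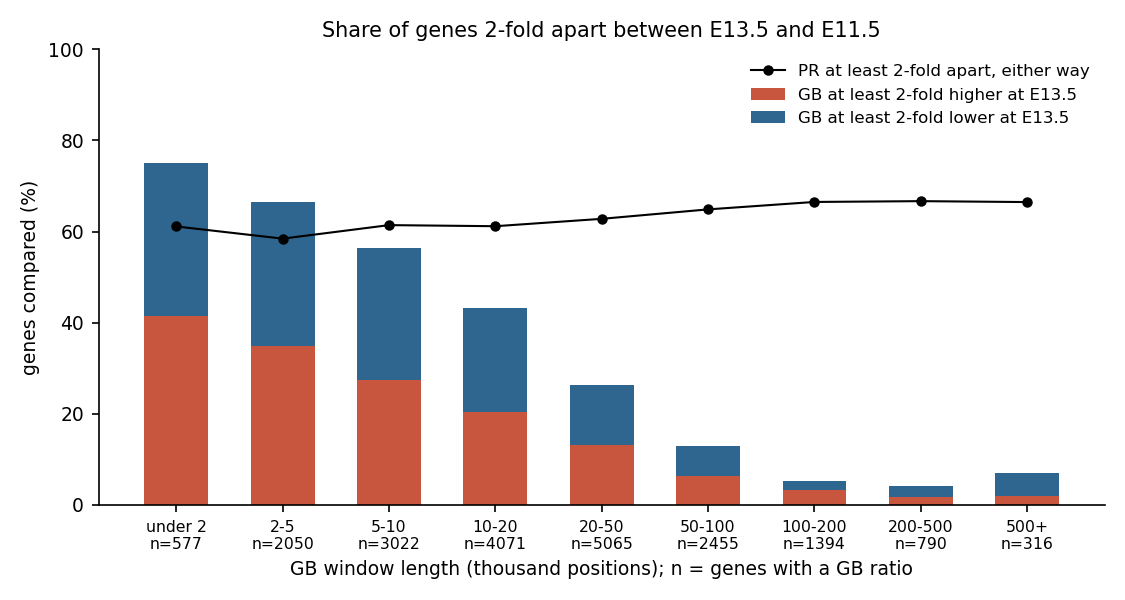
Bars give the percentage of genes whose GB was at least 2-fold higher (red) or lower (blue) at E13.5 than at E11.5, by GB window length in 1000 positions, and the line gives the percentage at least 2-fold apart in PR. The GB share falls from 75.04% to 4.18% between the shortest windows and those of 200000 to 500000 positions, while the PR share stays between 58.4% and 66.7%.

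Sorting by amount of signal gave a like narrowing. Steps come from the same GB values as the ratio and rise with window length, so this is not a separate pattern. In genes with 100 to 300 steps of GB signal, as the mean of both libraries, 63.0% of 3650 genes were at least 2-fold apart. With 1000 to 3000 steps the share was 15.7% of 5239 genes and with 3000 to 10000 steps 3.27% of 2050 genes. At 10000 steps or more, 1 of 295 genes was at least 2-fold higher and none was lower, and the SD of the log2 ratio was 0.28. PR of the same genes, whose window has 6000 positions in every gene, did not narrow. The SD of the log2 PR ratio was 2.45 in genes with 300 to 1000 steps of GB signal and 2.44 in genes with 10000 or more. The classes were cut on GB and not on PR, so GB and PR are not compared on equal terms.

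**Figure D3:**
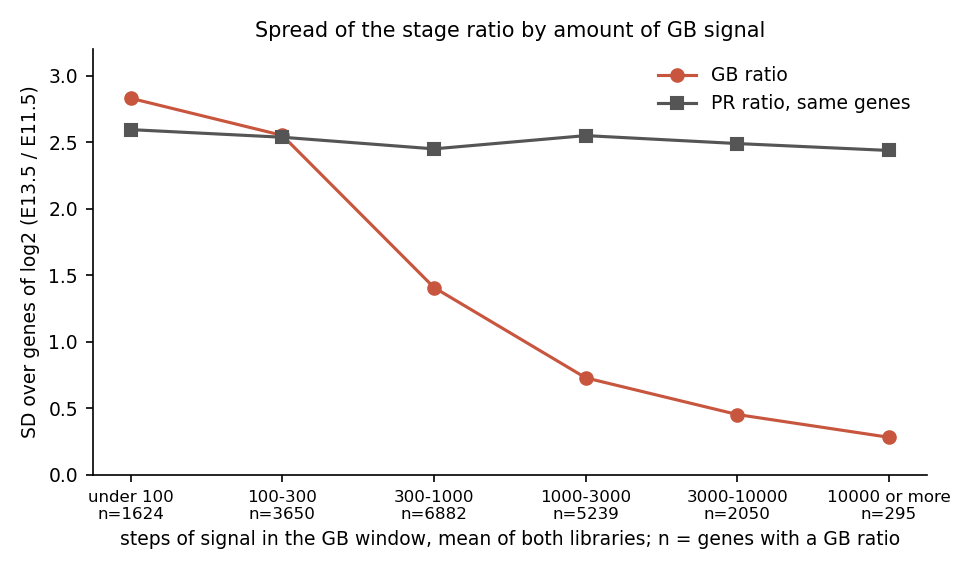
The SD over genes of the log2 ratio of E13.5 over E11.5 is plotted against the steps of signal in the GB window. The GB line falls from 2.83 to 0.28, whereas the PR line of the same genes stays between 2.44 and 2.60. The classes were cut on the same GB values as the ratio.

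PR showed no common movement between the stages but large differences gene by gene. A PR ratio existed for 17038 of the 19740 genes. PR was at least 2-fold higher at E13.5 in 5348 of them (31.4%) and at least 2-fold lower in 5273 (30.9%), and the median log2 ratio was -0.02 with an SD of 2.51. PR was listed at 0 in 5.77% of the genes at E11.5 and in 9.48% at E13.5, and its mean was 0.00575 and 0.00527, a ratio of 0.916. Long genes had a like share. In genes with GB windows of 50000 positions or more, 1372 of 3952 genes (34.7%) were higher and 1223 (30.9%) lower in PR. Outer SE differed as widely, with 5388 of 16568 genes at least 2-fold higher at E13.5 (32.5%) and 5023 lower (30.3%). In the genes with GB windows of 50000 positions or more, 1354 of 3813 were higher in outer SE (35.5%) and 1160 lower (30.4%).

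The 4955 genes with windows of 50000 positions or more are called long bodies here. Their GB values rest in the median on more signal than those of all genes compared, since their windows held a median of 2828 steps at E11.5 and 2734 at E13.5, against 704 and 658 over all lengths. Their GB ranged at E11.5 from 0.00119 at the 5th percentile over a median of 0.00414 to 0.00907 at the 95th. At E13.5 the same percentiles were 0.00118, 0.00410 and 0.00853, so the levels overlapped almost fully. The mean ratio was 0.981. GB was at least 2-fold higher at E13.5 in 220 long bodies (4.44%) and at least 2-fold lower in 226 (4.56%), and the quartiles of the log2 ratio were -0.36 and 0.34. Between 1.9-fold and 2-fold there were 45 higher and 51 lower, and between 2-fold and 2.1-fold 35 and 36, so the counts depend on where the threshold lies.

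Long bodies at least 2-fold apart had shorter windows and fewer steps, as the mean of both stages, than those within 2-fold. The steps come from the same GB values that formed the groups, so the lower signal is not read as a trait of these genes. The 220 higher ones had a median window of 79274 positions and 1696 steps, and the 226 lower ones 70860 positions and 1575 steps. The 4509 long bodies within 2-fold had a median of 104439 positions and 2937 steps. The higher group went from a median GB of 0.00186 at E11.5 to 0.00469 at E13.5, and the lower group from 0.00488 to 0.00195. These stage medians were fixed by the choice of the groups. The level at E13.5 of the higher group and that at E11.5 of the lower group were close to those of the long bodies within 2-fold, at 0.00417 and 0.00422. A cut on the ratio of these values favours genes low at a single stage, so nothing is read from which stage stood apart.

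The E15.5 library did not enter the ratios that formed these groups, although its GB values were used in recovering the window lengths. At E15.5 the higher group had a median GB of 0.00250, with quartiles of 0.00125 and 0.00502, and the lower group had 0.00296, with quartiles of 0.00108 and 0.00556. The groups overlapped nearly completely there, and the group that was higher at E13.5 had the lower median. Both medians were below that of the long bodies within 2-fold, 0.00363, at 0.688 and 0.813 times its value. E15.5 lay above the geometric midpoint of the earlier stages in 104 of the 220 higher genes, a share of 47.3% (exact binomial 95% interval 40.5 to 54.1). It did so in 115 of the 226 lower genes, 50.9% (44.2 to 57.6), and in 1827 of the 4509 others, 40.5% (39.1 to 42.0). The intervals count genes as independent and say nothing of how libraries of a stage vary. They also leave out the scaling of the libraries, which is unknown. With each library divided by its median and the groups formed again, the shares were 51.7% (higher), 56.4% (lower) and 46.6% (others). The last lies outside the interval given above for the others, so the size of these shares depends on the scaling.

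**Figure D4:**
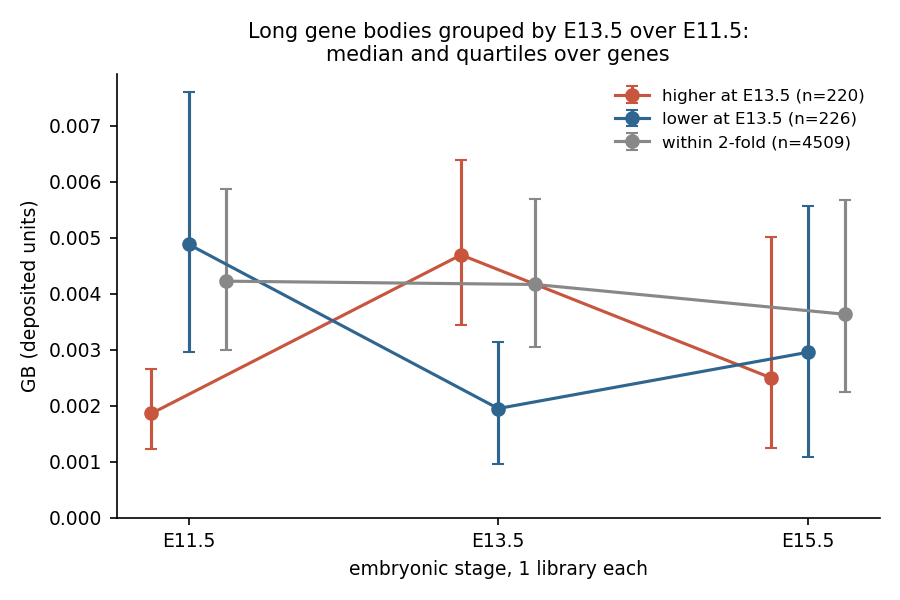
Median GB, with quartiles over genes as bars, is plotted by stage for long bodies at least 2-fold higher at E13.5, at least 2-fold lower and within 2-fold. The first pair of stages was used to form the groups, and at E15.5 the higher and the lower group overlap, with medians of 0.00250 and 0.00296.

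PR and outer SE of the same genes gave a partial match in direction. Among the higher long bodies with a PR ratio, PR was higher at E13.5 in 113 of 172 (65.7%), with a median log2 PR ratio of 0.91. Among the lower ones PR was higher in 69 of 149 (46.3%), with a median of -0.21, and among those within 2-fold in 1840 of 3631 (50.7%). Genes without a PR ratio are left out of these counts. Over all 226 lower genes median PR was 0.00143 at E11.5 and 0.00165 at E13.5, so it did not fall. Over all 220 higher genes it was 0.00140 and 0.00307. Outer SE was higher in 98 of 162 genes of the higher group (60.5%), in 60 of 153 of the lower group (39.2%) and in 1868 of 3498 of the others (53.4%). Over all long bodies the ratios were nearly unrelated across genes. Spearman's correlation of the GB ratio was 0.0968 with the PR ratio over 3952 genes and 0.133 with the outer SE ratio over 3813. For PR with outer SE, which share no position if PR lies within SE, it was 0.0018 over 3219 genes. In genes with GB windows under 10000 positions the GB ratio went more closely with that of PR, at 0.497 over 5267 genes. GB and PR may share positions, and whether they do was not tested. Of the 3219 long bodies with all 3 ratios, 502 rose in all 3 windows and 440 fell in all 3, and the other combinations held between 289 and 417 genes each.

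Grouping long bodies by their E15.5 level gave small median log2 ratios in every group. In the lowest group of 991 genes by E15.5 GB, median GB was 0.00234 at E11.5 and 0.00257 at E13.5, and 79 genes were at least 2-fold higher and 78 lower. In the highest group of 991 genes median GB was 0.00650 and 0.00638, with 29 higher and 43 lower. The earlier stages thus followed the order of E15.5 levels. The median log2 ratio was 0.04 in the lowest group, -0.05 in the next to highest and -0.04 in the highest. The highest group also had shorter windows, with a median of 79173 positions against 117205.

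Genes with the highest body signal at the first pair of stages were also high at E15.5. In the 248 long bodies in the top 5% by mean GB over both stages, median GB was 0.0101 at E11.5 and 0.00955 at E13.5. GB was at least 2-fold higher at E13.5 in 4 of them (1.61%) and lower in 8 (3.23%), against 4.44% and 4.56% of all long bodies, and log2 ratios ran from -1.42 to 1.23. The choice by mean GB over the same stages made these levels high and favours genes high at both, so nothing is read from these counts. The choice did not use E15.5 beyond the recovery of window lengths. At E15.5 their median GB was 0.0100, against 0.00343 in the other long bodies, and 96.4% of them were above the median of all long bodies. Their PR was higher as well, with a median of 0.00627 at E11.5 and 0.00578 at E13.5, against 0.00302 and 0.00307 in the other long bodies.

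At the other end, 53 long bodies (1.07%) held under 100 steps of GB signal as the mean of both stages, which also made their GB low. Their median GB was 1.41e-05 at E11.5 and 1.71e-05 at E13.5, with a median of 21.5 steps, against 0.00416 and 0.00413 in the other 4902 long bodies. E15.5, which entered this choice only through the window lengths, was as low, with a median of 1.74e-05 against 0.00361. PR was listed at 0 in 49 of the 53 at E11.5 and in all 53 at E13.5. These genes gave 6 of the 220 higher and 15 of the 226 lower long bodies. Whether reads can be placed uniquely in these windows was not tested.

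Among the 2478 long bodies with a mean GB at or above the median, the 10 largest rises lay between 2.80-fold and 3.39-fold and the 10 largest falls between 2.96-fold and 3.99-fold. Over all 4955 long bodies the log2 ratio reached 3.64 and -5.98, so larger changes lie outside this set. The 10 that rose most had GB of 0.00201 to 0.00366 at E11.5 and 0.00620 to 0.0114 at E13.5. At E15.5, 6 of them lay between the earlier values, 3 above both and 1 below both. The 10 that fell most had GB of 0.00650 to 0.0113 at E11.5 and 0.00195 to 0.00380 at E13.5. At E15.5, 6 lay between the earlier values, 2 above both and 2 below both. For comparison, E15.5 lay above both in 45 of the 220 higher, 60 of the 226 lower and 1386 of the 4509 other long bodies. Values between the earlier ones were not counted over all long bodies. PR rose in 6 and fell in 2 of the first 10, and rose in 3 and fell in 5 of the second 10, with no ratio for the others. Over the 3952 long bodies with a PR ratio, 51.2% rose and 48.8% fell, and nothing is read from counts of so few genes.

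In this set of 2478 the largest rise was in ENSMUSG00000019802, with a window of 71019 positions. Its GB went from 0.00266 to 0.00901 and then to 0.00384 in stage order. The first step was a 3.39-fold rise, and the E15.5 value was nearer that of E11.5. Its PR was listed at 0, 0.000335 and 0.0257 in the same order, so PR and GB did not peak at the same stage. The next largest rise in the set was in ENSMUSG00000013611, with a window of 51512 positions. Its GB was 0.00209, then 0.00688 and then 0.00928 at E15.5, a 3.30-fold rise in the first step with a still higher value afterwards. Its PR was 0.00286 and 0.00720 at the first stages, a 2.52-fold rise, and was listed at 0 at E15.5. Among all long bodies, PR was listed at 0 at E15.5 in 21.0%.

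The largest fall among the same 2478 long bodies was in ENSMUSG00000038729, with a window of 51737 positions. Its GB was 0.00924, then 0.00232 and then 0.00285 at E15.5. The first step was a 3.99-fold fall, and the E15.5 value was nearer that of E13.5. Its PR was 0.00777, 0.00625 and 0.00261 in the same order. The next largest fall among them was in ENSMUSG00000030268, with a window of 82323 positions. Its GB was 0.00877, 0.00229 and 0.00333 in stage order, a 3.84-fold fall in the first step. Its PR went the other way in that step, from 0.00480 to 0.00564, and was 0.00120 at E15.5. In these 4 genes the lower library held 664 to 1166 steps. The choice by mean GB favours windows with more signal.

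**Figure D5:**
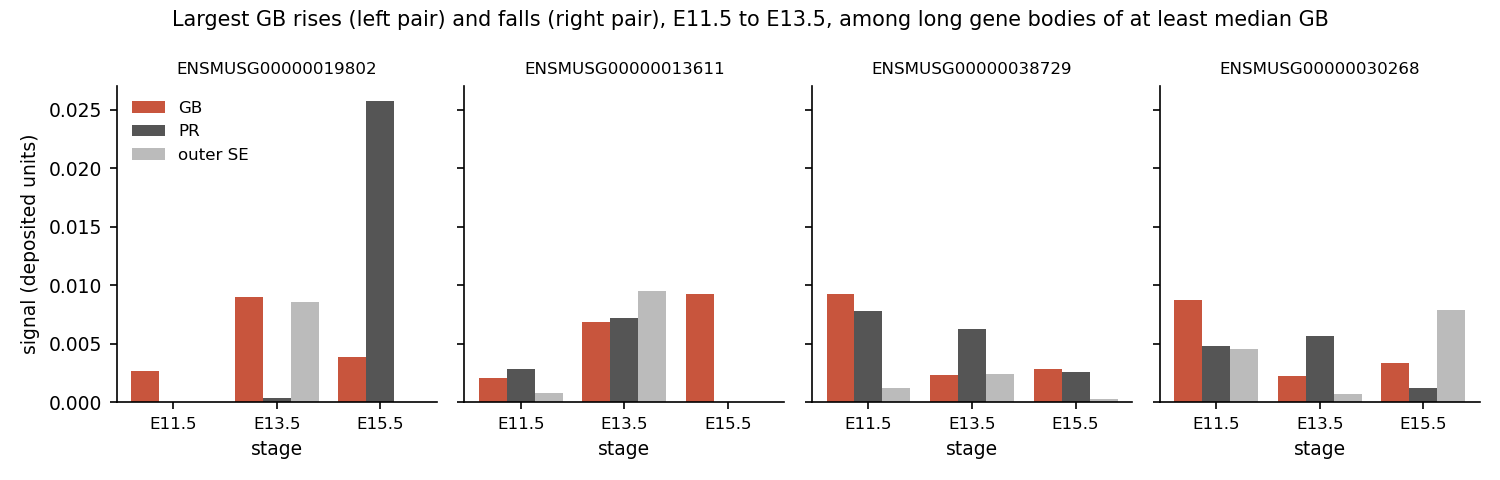
Bars give GB, PR and outer SE in deposited units at each stage for the pair with the largest GB rises and the pair with the largest falls from E11.5 to E13.5 among long bodies of at least median GB. GB of the first pair rises from at most 0.00266 to at least 0.00688, and GB of the second pair falls from at least 0.00877 to at most 0.00232.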

How the data were processed

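Per the submitters' processing notes, reads were mapped with Bowtie2 2.4.2 to mm10. The sources used here do not give the filtering, counting, scaling or gene models. The labels give a mean of 20000000 reads per sample. The authors deposited 1 file per stage with 25493 rows and 3 columns of signal (PR, GB, SE). Rows without an identifier, 1175 (4.61%), were left out. The depth of each file is unknown.

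With Python 3.11.15, numpy 2.4.6 and numba 0.67.0, the step of each library was fitted on PR sums. The GB length was the smallest at which all GB values above 0, E15.5 included, were whole multiples of their steps. This allowed for values below 0.0001 being written with 3 digits. The search was checked on simulated windows whose lengths were recovered ones under 500000 positions, with signal in every library. Windows at 0 in a library were not simulated, and the outcome is not reported here. Lengths of 500000 or more (316 genes) are the least certain. A length, and the steps drawn from it, can also be too small where a value is below 0.0001 or at 0. Such values constrain the search less.

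Ratios are of values as deposited, without a pseudocount. Members, thresholds and naming rule (largest 10 per direction among long bodies of at least median GB, with at most 2 identifiers per direction printed) were chosen with earlier results of these data known. The 14 gene lists drawn up could not be used without names.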

Additional observations from a re-analysis of the deposited data

Results flagged for a closer look

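Rows without an identifier were outside every comparison but carried signal. PR was above 3 steps at both E11.5 and E13.5 in 734 of these 1175 rows, and GB was above 0 at both stages in 749, with a median of 0.00307 at E11.5 and 0.00328 at E13.5. They were singled out because signal appeared in data not otherwise used, and no control library was analysed here.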

How the results depend on the processing

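Of 49 recomputed values, 31 stayed within 1.5 times the main count, or within 0.1 for log2 medians and ratios of medians. Those that moved are given here, with higher before lower. Over all genes with signal at both stages (main 3500 and 3532, or 17.7% and 17.9%) GB gave 1522 and 1891 (15.4% and 19.2%) among the 9870 genes with mean GB at or above the median, and 1716 and 1814 (12.2% and 12.9%) among the 14091 with windows of 10000 positions or more. It gave 403 and 485 (5.31% and 6.40%) among the 7584 with a mean of 1000 steps or more, and 5562 lower (28.2%) at a 1.5-fold threshold. Long bodies (220 and 226, or 4.44% and 4.56%) gave 82 and 84 (1.65% and 1.70%) with a pseudocount of 0.001, which shrinks ratios by construction, 41 and 58 (2.71% and 3.84%) among the 1511 at or above the median GB of all genes, and 673 and 710 (13.6% and 14.3%) at 1.5-fold. PR (5348 and 5273, or 31.4% and 30.9%) gave 2057 and 2632 (24.1% and 30.9%), with a median log2 ratio of -0.20, among the 8519 genes with mean PR at or above the median, and 1372 and 1223 (34.7% and 30.9%) in long bodies alone. Fewer genes entered the filtered counts, but where the shares moved too the cause was not tested. Dividing each library by its median left every count within 1.5 times and shifted the log2 GB ratio of each gene by 0.03, which brought its median to 0.01. The limits to 1000 steps, to windows of 50000 to 500000 positions and to long bodies for PR, and all alternatives for E15.5, were added after seeing the data. Alternatives for gene lists were not run, for lack of names. No paired analysis was possible because a stage is a single library.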
